A study of Mus musculus with 11 samples.

Results

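Forebrain and eye field factors were followed library by library in RNA from the embryonic mouse face, as markers of the brain and eye tissue that neighbours it. The factors are *Pax6*, *Six3*, *Six6*, *Rax*, *Vax1*, *Lhx2*, *Otx2* and *Emx2*, 8 of the 38561 genes in the count files, and they were chosen by name and matched to Ensembl identifiers. All 8 were found and all passed the filter on low counts. Facial process explants, that is mandibular, maxillary and nasal tissue, had been dissected from embryos of mixed strain at embryonic day 10.5 (E10.5) and their total RNA sequenced. The libraries analysed here are 2 from wild type embryos (wt), 3 from homozygous *Rspo2* mutants (Rspo2KO), 3 from homozygous *Wnt9b* mutants (Wnt9bKO) and 3 from embryos homozygous for both mutations (DKO). *Rspo2* encodes a secreted protein that raises the response of cells to WNT ligands, *Wnt9b* encodes such a ligand, and the study asked how they act together in the face. The mutations are present throughout the embryo, and the study's methods name more than 1 *Rspo2* null allele without saying which these libraries carry. The labels do not say whether libraries of a genotype came from separate embryos, so the p-values below measure only the spread between these libraries.

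All 8 genes encode transcription factors with a homeodomain, a DNA-binding fold, and PAX6 carries a paired domain as well. In the early embryo they act in the anterior neural plate, where *Six3* and *Otx2* help to set up the forebrain, *Rax*, *Pax6*, *Six3*, *Six6* and *Lhx2* define the field that gives rise to the eyes, *Vax1* marks the ventral optic and preoptic region, and *Emx2* the dorsal telencephalon. Several are also active outside the brain, *Pax6*, *Six3* and *Otx2* in the lens or nasal placodes and *Six6* in the pituitary, so their RNA in a face library can come from more than one tissue. In bulk RNA, fewer cells of a type and less RNA per cell cannot be told apart.

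Total counts ran from 11136166 in wt 1 to 18017344 in DKO 3, and levels are given in CPM, a gene's counts relative to the total of its library after TMM scaling. *Rspo2* was measured at 14.8 and 16.0 CPM in the 2 wt libraries, and Rspo2KO gave 6.58, 4.79 and 4.73 CPM. The 3 Wnt9bKO libraries had 22.8, 2.86 and 18.1 CPM and the 3 DKO libraries 4.17, 3.67 and 15.5 CPM. The libraries labelled Wnt9bKO 2 and DKO 3 therefore go against their labels for this gene. Calls and log2 changes of the factors were also computed without them. Marker lists, sums, ratios, deviations and correlations keep both libraries under their labels. *Wnt9b* counts were not lower in the libraries labelled as its mutants, 16.2 to 23.3 CPM against 10.8 to 16.7 CPM elsewhere. The gene was called higher against wt in both Wnt9bKO and DKO, by the call defined below. These counts therefore do not check those labels. wt 1 had the highest heart marker sum, 56.8 CPM against 2.80 to 9.77 CPM in the other libraries. Markers of the labelled tissue were present in every library, where 11 facial mesenchyme genes such as *Msx1*, *Prrx1* and *Twist1* summed to 807 to 1480 CPM.

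Against wt, 6 of the 8 factors rose in Wnt9bKO (*Emx2*, *Lhx2*, *Six3*, *Vax1*, *Rax* and *Otx2*, by 1.84 to 2.32 times) and 4 rose in DKO (*Emx2*, *Lhx2*, *Rax* and *Six3*), while none was called in Rspo2KO. A call here is an adjusted p below 0.05 with a change of more than 1.5-fold in edgeR's quasi-likelihood test across 17317 genes, after Benjamini-Hochberg adjustment. The share of all genes tested that were called higher was 12.1% in Wnt9bKO and 9.94% in DKO, and 0.0346% were called in either direction in Rspo2KO. *Pax6* and *Six6* were called in no comparison. The comparisons with wt share the same wt libraries.

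*Emx2* (ENSMUSG00000043969, GRCm38 chromosome 19, 59458372 to 59465357, plus strand), which patterns the dorsal telencephalon, separated the libraries by *Wnt9b* genotype most widely. Its level was 7.41 and 3.86 CPM in wt and 5.54, 4.19 and 3.34 CPM in Rspo2KO, against 11.2, 14.2 and 12.9 CPM in Wnt9bKO and 12.1, 12.4 and 11.4 CPM in DKO. All 6 libraries carrying the *Wnt9b* mutation by label thus lay above all 5 without it, the libraries labelled Wnt9bKO 2 and DKO 3 included. The log2 fold change against wt was 1.21 in Wnt9bKO (standard error 0.25, edgeR adjusted p = 0.00217) and 1.12 in DKO (standard error 0.25, edgeR adjusted p = 0.00461). Against Rspo2KO it was 1.47 in DKO (standard error 0.22, edgeR adjusted p = 0.000430), and that call held under every alternative tried. The wt libraries themselves differed in *Emx2*, and without wt 2 the changes against wt were 0.78 and 0.69 on the log2 scale and no longer called. Of the *Emx2* exon bases, 8.8% also lie in exons of *Emx2os* on the opposite strand, and the strand setting of the counting is not given.

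*Lhx2* (ENSMUSG00000000247, chromosome 2, 38339281 to 38369733, plus strand) encodes a LIM homeodomain factor needed for eye and cortex formation. It was 24.4 and 24.7 CPM in wt and 30.5, 27.4 and 24.4 CPM in Rspo2KO. It reached 32.4, 75.5 and 53.1 CPM in Wnt9bKO and 42.8, 45.9 and 43.0 CPM in DKO. The *Wnt9b* mutant libraries again lay above all others, but the library labelled Wnt9bKO 2 stood far above Wnt9bKO 1, whereas the DKO libraries were nearly level. *Lhx2* rose by 1.13 on the log2 scale in Wnt9bKO (standard error 0.24, edgeR adjusted p = 0.00316) and by 0.84 in DKO (standard error 0.24, edgeR adjusted p = 0.0202). Its call in Wnt9bKO held under all 21 alternatives to the main fit, whose changes ran from 0.80 to 1.39.

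*Otx2* (ENSMUSG00000021848, chromosome 14, 48657677 to 48673819, minus strand), required for forebrain and midbrain identity and later for the retinal pigment layer, was 20.5 and 19.0 CPM in wt. It was 26.3, 27.2 and 19.5 CPM in Rspo2KO, 24.0, 53.4 and 31.5 CPM in Wnt9bKO and 40.9, 32.4 and 26.7 CPM in DKO. Wnt9bKO 1 lay below 2 of the Rspo2KO libraries, so *Otx2* did not sort the libraries by *Wnt9b* genotype as *Emx2* and *Lhx2* did. The change against wt was 0.88 in Wnt9bKO (edgeR adjusted p = 0.0250) and 0.76 in DKO (edgeR adjusted p = 0.0543). The call in Wnt9bKO was lost without the libraries labelled Wnt9bKO 2 and DKO 3, where the change was 0.49, and in the same setting *Otx2* was called in DKO. It was lost as well without wt 1, wt 2 or Wnt9bKO 2 alone, and in the fit of only the genotypes compared. In DKO *Otx2* was called under 11 of 21 alternatives.

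**Figure D1:**
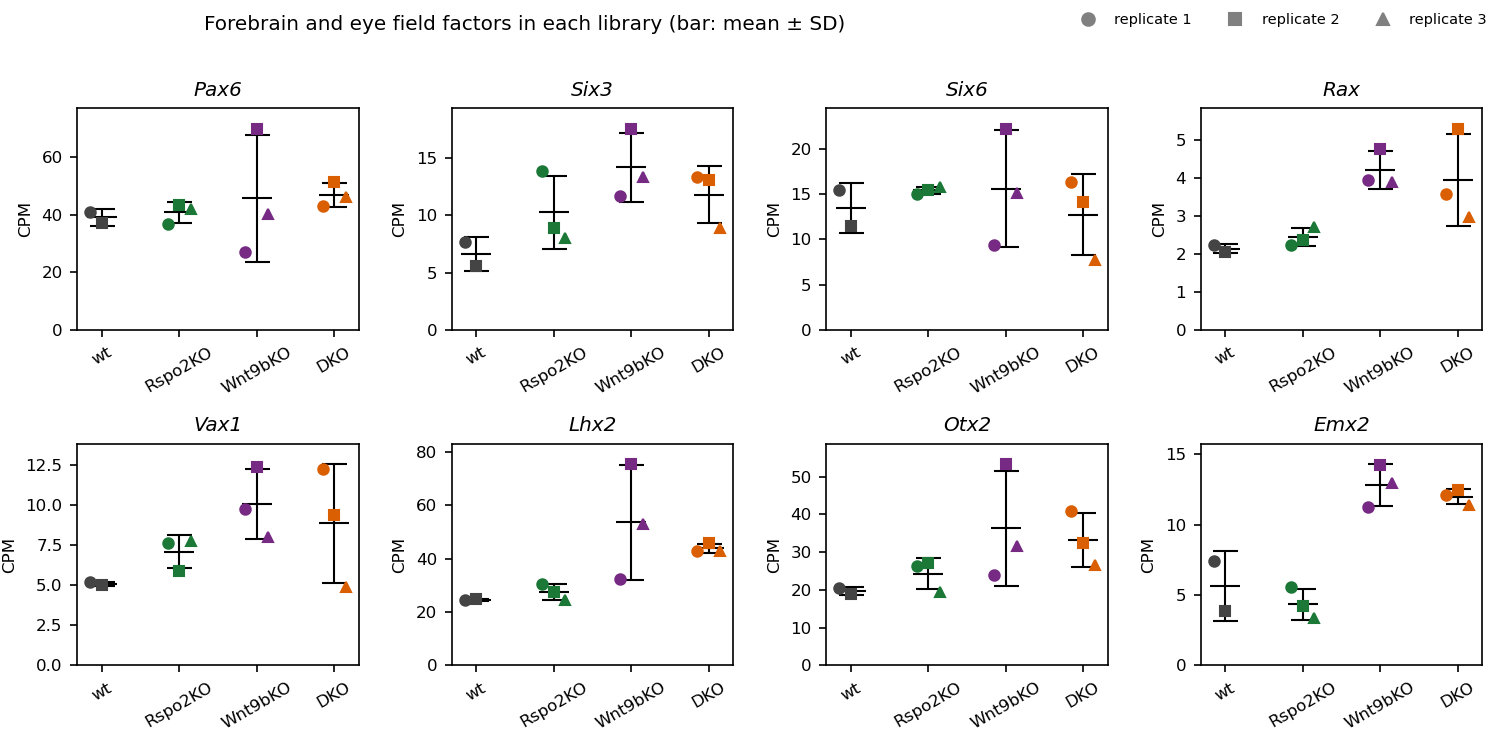
CPM of each factor in each library, with 1 panel a gene, libraries grouped by genotype label, marker shape giving the replicate number and bars the mean and SD. *Emx2* and *Lhx2* are higher in all 6 libraries labelled with the *Wnt9b* mutation than in the other 5, and Wnt9bKO 2 is the highest library for 7 of the 8 genes.

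Among the eye field genes, *Rax* (ENSMUSG00000024518, chromosome 18, 65928277 to 65939787, minus strand), without which no optic vesicle forms, was the scarcest, with 25 to 85 counts a library. Its level was 2.23 and 2.05 CPM in wt, 2.24, 2.37 and 2.71 CPM in Rspo2KO, 3.94, 4.76 and 3.89 CPM in Wnt9bKO and 3.58, 5.29 and 2.97 CPM in DKO. Every library with the *Wnt9b* mutation lay above every library without it, by a narrow gap at DKO 3. The log2 change was 0.97 in Wnt9bKO (standard error 0.27, edgeR adjusted p = 0.0123) and 0.88 in DKO (standard error 0.27, edgeR adjusted p = 0.0244). Exons of *Raxos1* on the opposite strand share 27.4% of the *Rax* exon bases, but that gene had only 2 to 7 counts a library.

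*Six3* (ENSMUSG00000038805, chromosome 17, 85613608 to 85629302, plus strand) represses WNT signalling in the anterior forebrain. Its level was lowest in wt, with 7.67 and 5.55 CPM, and Rspo2KO had 13.8, 8.86 and 8.01 CPM. Levels were 11.6, 17.5 and 13.3 CPM in Wnt9bKO and 13.3, 13.1 and 8.91 CPM in DKO. Both wt libraries were the lowest of the 11, and Rspo2KO 1 was above all 3 DKO libraries. *Six3* rose by 1.11 on the log2 scale in Wnt9bKO (standard error 0.27, edgeR adjusted p = 0.00635) and by 0.85 in DKO (standard error 0.27, edgeR adjusted p = 0.0315), while its change of 0.64 in Rspo2KO did not pass (edgeR adjusted p = 0.368).

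*Six6* (ENSMUSG00000021099, chromosome 12, 72939892 to 72944899, plus strand), the relative of *Six3* that acts in the retina, hypothalamus and pituitary, behaved otherwise. It was 15.4 and 11.5 CPM in wt, 14.96, 15.5 and 15.8 CPM in Rspo2KO, 9.36, 22.2 and 15.2 CPM in Wnt9bKO and 16.3, 14.1 and 7.70 CPM in DKO. The 3 Rspo2KO libraries were nearly level, whereas Wnt9bKO and DKO held both the highest and the lowest libraries of the series. The change against wt was 0.21 in Wnt9bKO (edgeR adjusted p = 0.636), which is 1.16-fold with a 95% interval from 0.692 to 1.95, and -0.07 in DKO (edgeR adjusted p = 0.886), and both changed sign without the libraries labelled Wnt9bKO 2 and DKO 3.

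*Pax6* (ENSMUSG00000027168, chromosome 2, 105668900 to 105697364, plus strand), active in forebrain, retina, lens and nasal placode, had the highest CPM of the 8 in wt. Its level was 41.1 and 37.1 CPM in wt, 36.8, 43.5 and 42.1 CPM in Rspo2KO, 27.0, 69.9 and 40.1 CPM in Wnt9bKO and 43.2, 51.2 and 46.3 CPM in DKO. Wnt9bKO 1 was the lowest and Wnt9bKO 2 the highest of all libraries, on either side of wt. The fold change was 1.17 in Wnt9bKO (95% interval 0.758 to 1.80) and 1.20 in DKO (95% interval 0.779 to 1.85). Neither was called, and both intervals hold no change as well as rises up to those upper bounds.

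*Vax1* (ENSMUSG00000006270, chromosome 19, 59166187 to 59170056, minus strand), which keeps ventral optic tissue from becoming retina, lies 288315 bases from *Emx2*. It was 5.18 and 5.01 CPM in wt, 7.63, 5.88 and 7.76 CPM in Rspo2KO, 9.73, 12.4 and 8.03 CPM in Wnt9bKO and 12.3, 9.39 and 4.91 CPM in DKO. All 3 Wnt9bKO libraries were above every library of wt and Rspo2KO, while the library labelled DKO 3 was the lowest of the 11. The change was 0.98 in Wnt9bKO (standard error 0.31, edgeR adjusted p = 0.0253) and 0.80 in DKO (standard error 0.31, edgeR adjusted p = 0.0691). Without the libraries labelled Wnt9bKO 2 and DKO 3, *Vax1* was called in both. The call in Wnt9bKO was lost without wt 1, without wt 2 or without Wnt9bKO 2 alone. In DKO it was called under 6 of 21 alternatives.

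**Figure D2:**
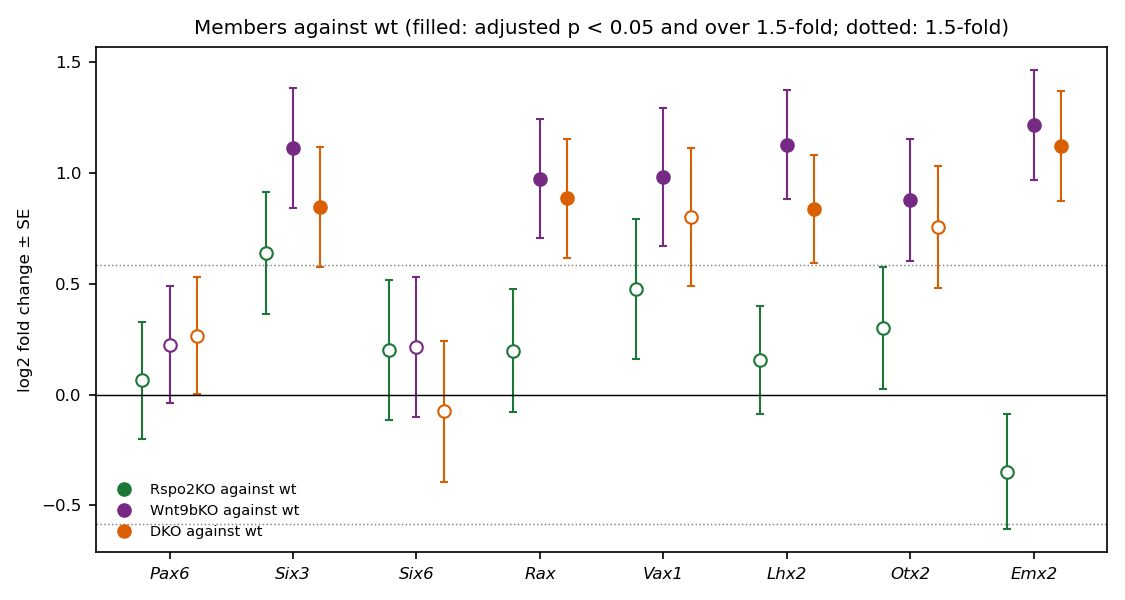
Log2 fold change against wt with its standard error for each factor (edgeR), in Rspo2KO, Wnt9bKO and DKO, with filled points where the adjusted p is below 0.05 and the change over 1.5-fold, and dotted lines at 1.5-fold. Wnt9bKO has 6 filled points and DKO 4, and *Pax6* and *Six6* lie near 0 in all 3 comparisons.

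The median log2 change of the 8 factors was 0.98 in Wnt9bKO, 0.82 in DKO and 0.20 in Rspo2KO, while the median of all genes tested was 0.013, 0.015 and 0.00099 in the same order. Every Wnt9bKO library lay above both wt libraries for 6 factors, and every DKO library did so for 6, where the shares of all genes tested that did so were 28.3% and 29.5%. Every Rspo2KO library did so for 3 factors (*Six3*, *Rax* and *Vax1*), beside 17.2% of all genes tested. The sets of Wnt9bKO and DKO differ, since DKO has *Pax6* in place of *Vax1*. These counts depend on the wt libraries. Without wt 1 the number called was 3 in Wnt9bKO and 1 in DKO, and without wt 2 it was 1 (*Lhx2*) and 0. Without DKO 2 it was 2 in DKO. Without the libraries labelled Wnt9bKO 2 and DKO 3 it was 5 in Wnt9bKO and 6 in DKO. With every library kept, DESeq2 called 6 factors in Wnt9bKO and the same 6 in DKO, *Vax1* and *Otx2* included.

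Between DKO and Wnt9bKO no factor was called by edgeR, none passed at an unadjusted p with the 1.5-fold limit, and DESeq2 called none, where 0.121% of all genes tested were called by edgeR and 2.93% passed at an unadjusted p. The DKO to Wnt9bKO fold was 0.936 for *Emx2* (95% interval 0.673 to 1.30), 0.818 for *Lhx2* (0.583 to 1.15) and 1.03 for *Pax6* (0.703 to 1.503), intervals that leave room for changes of more than 1.2-fold. Between DKO and Rspo2KO, *Emx2*, *Lhx2* (0.68 on the log2 scale, edgeR adjusted p = 0.0376) and *Rax* (0.69, edgeR adjusted p = 0.0492) were higher, 3 of 8 against 4.72% of all genes called higher. That count fell to 1, *Emx2*, without wt 1, wt 2, Rspo2KO 2, Rspo2KO 3, DKO 1 or DKO 2, and was 5 without the libraries labelled Wnt9bKO 2 and DKO 3. In Rspo2KO against wt the count of 0 became 1 (*Six3*) at an unadjusted p, which 4.68% of all genes tested passed, and stayed 0 by DESeq2. The interaction, the change in DKO beyond the sum of the single mutants on the log2 scale, was called for none of the 8 by edgeR or DESeq2, beside 0.0635% of all genes called by edgeR. An unadjusted p under the threshold was found for 1 factor (*Six3*, -0.90, edgeR adjusted p = 0.457) and for 9.44% of all genes tested, so that 1 of 8 is near the share of all genes.

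In some libraries most or all factors lay on the same side of the mean of their genotype. The library labelled Wnt9bKO 2 was above its genotype's mean for 8 of 8 factors (median deviation 0.45 on the log2 scale), and Wnt9bKO 1 (median deviation -0.39) and the library labelled DKO 3 (median deviation -0.33) were above it for 0 of 8. DKO 2 and wt 1 were above it for 7 of 8, and wt 2 mirrors wt 1 because wt has only 2 libraries. The others were mixed: Rspo2KO 1, 2 and 3 were above it for 5, 4 and 4 of 8, DKO 1 for 5 and Wnt9bKO 3 for 3. The spread between replicates, as the within-genotype SD of log2 CPM, was 0.25 for *Rax* to 0.46 for *Six6*, against a median of 0.20 over all genes tested. Within genotypes all 28 pairs of factors correlated positively (Pearson's r of deviations 0.09 to 0.89, median 0.54), highest for *Pax6* with *Lhx2* and *Six6* with *Otx2*. This is a description over 11 libraries whose deviations share the same library totals. The deviations of the libraries labelled Wnt9bKO 2 and DKO 3 were taken from the means of the genotypes on their labels.

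**Figure D3:**
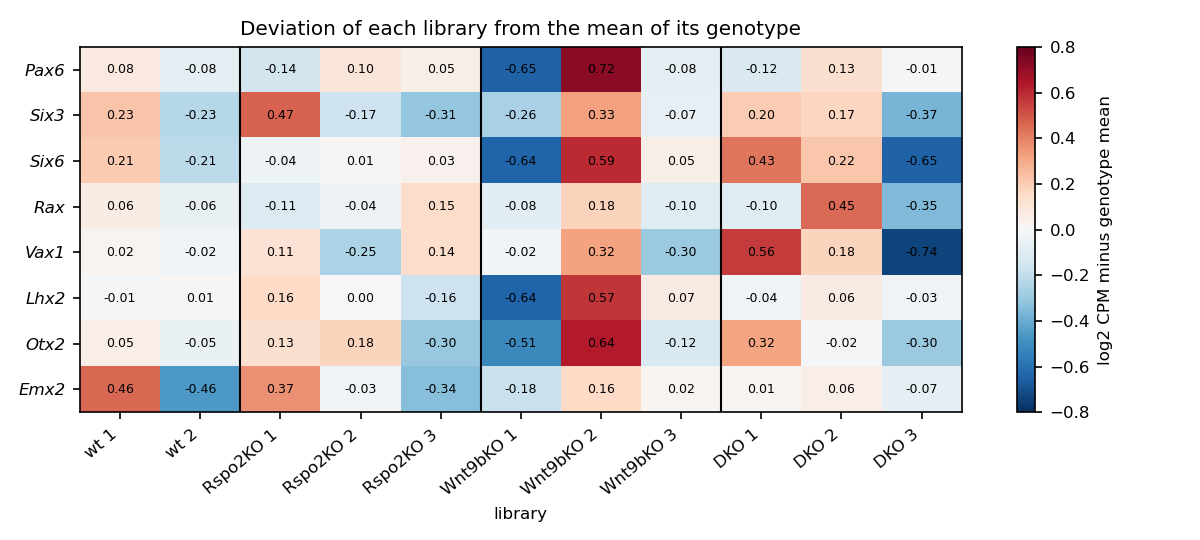
Deviation of each library's log2 CPM from the mean of its genotype for each factor, with red above and blue below the mean and vertical lines between genotypes. The column of Wnt9bKO 2 is red throughout, and those of Wnt9bKO 1 and DKO 3 are blue throughout.

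The proportions among the factors also differed between libraries, in ratios of counts that do not depend on library depth and that were chosen after their values were seen. The ratio of *Emx2* to *Six6* counts was 0.480 and 0.335 in wt and 0.370, 0.271 and 0.212 in Rspo2KO. It was 1.20, 0.641 and 0.854 in Wnt9bKO and 0.741, 0.881 and 1.48 in DKO. That ratio was higher in all 6 libraries labelled with the *Wnt9b* mutation than in the other 5, including the low libraries Wnt9bKO 1 and DKO 3. The ratio of *Lhx2* to *Pax6* counts was likewise 0.579 to 0.829 in the 5 libraries of wt and Rspo2KO and 0.896 to 1.32 in the 6 of Wnt9bKO and DKO. Of the 4 ratios computed, the other two overlapped between these sets of libraries. The ratio of *Lhx2* to *Otx2* counts was 1.01 to 1.30 in wt and Rspo2KO and 1.05 to 1.69 in Wnt9bKO and DKO, and that of *Six3* to *Six6* counts was 0.482 to 0.925 and 0.788 to 1.24. Counts of *Emx2* and *Six6*, and of *Lhx2* and *Pax6*, thus did not keep 1 proportion across the libraries.

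Per kilobase of exon, the wt levels ordered the factors as *Lhx2* (5.59 ± 0.0615 CPM per kb, SD, n = 2), *Otx2* (4.68 ± 0.254), *Vax1* (4.56 ± 0.106), *Six6* (3.36 ± 0.690), *Pax6* (3.34 ± 0.247), *Emx2* (1.88 ± 0.835), *Six3* (1.21 ± 0.276) and *Rax* (0.366 ± 0.0217). The neighbours *Otx2* and *Vax1*, *Six6* and *Pax6*, and *Emx2* and *Six3* did not differ beyond their spread. The annotation gives *Vax1* only 1117 exon bases, on which its place in this order depends.

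Some other regulators of forebrain development rose beside the factors. Of 16 such genes, 6 rose, none fell and 10 were not called in Wnt9bKO. In DKO 7 rose, none fell and 9 were not called. The shares of all genes called higher were 12.1% in Wnt9bKO and 9.94% in DKO. Among those not called, mean levels of *Lhx9* (2.98 against 3.49 CPM in wt), *Dbx1* (2.34 against 2.86) and *Barhl2* (0.706 against 1.06) were lower in Wnt9bKO. *Nkx2-1*, a marker of ventral forebrain, was 4.997 and 3.44 CPM in wt and 14.7, 16.1 and 14.9 CPM in Wnt9bKO (log2 change 1.88, edgeR adjusted p = 0.00133). *Nr2e1*, a factor of forebrain progenitors, was 12.7 and 13.0 CPM in wt and 20.4, 44.3 and 34.6 CPM in Wnt9bKO (log2 change 1.36, edgeR adjusted p = 0.00215). The summed CPM of the 16 genes was 61.3 to 64.6 in wt, 73.6 to 100.2 in Rspo2KO, 97.5 to 168 in Wnt9bKO and 112 to 136 in DKO, with the library labelled Wnt9bKO 2 the highest. The 8 factors themselves summed to 109 to 124 CPM in wt, 124 to 138 in Rspo2KO, 129 to 270 in Wnt9bKO and 152 to 184 in DKO.

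Genes of the retina and pigment layer moved less than the factors in their median. The median log2 change of 11 tested genes of retina and pigment layer was 0.35 in Wnt9bKO and 0.41 in DKO. Their sum was 65.5 to 85.0 CPM in wt, 58.7 to 107 CPM in Wnt9bKO and 69.7 to 111 CPM in DKO, so the genotypes overlapped. Of 10 tested lens genes, *Prox1*, *Maf* and *Cryaa* rose and *Mab21l1* fell in both comparisons. The median log2 change of the lens genes was 0.76 in Wnt9bKO and 0.94 in DKO. *Cryaa*, which encodes a lens crystallin, had no count in wt 1 and 0.06 CPM in wt 2 but 12.1, 0.24 and 1.32 CPM in Wnt9bKO and 8.92, 3.17 and 1.33 CPM in DKO. The libraries highest in *Cryaa* were thus not those highest in *Pax6*. Of 8 nasal placode genes 1, *Dlx5*, rose in Wnt9bKO, near the 12.1% of all genes called higher there.

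Markers of further tissues were called in the same comparisons. Of 10 neural progenitor genes 4 rose and 3 fell in Wnt9bKO, and 5 rose in DKO. Their sum was 641 to 680 CPM in wt, 726 to 780 in Rspo2KO, 798 to 973 in Wnt9bKO and 917 to 1110 in DKO. Of 8 neuronal genes 1 fell in Wnt9bKO (*Tubb3*, a neuronal tubulin) and 3 rose in DKO. The library labelled Wnt9bKO 2, highest in the factors, had the lowest sums of neuronal genes (370 CPM, against 503 to 805 in the other libraries) and of facial mesenchyme genes (807 CPM), while Wnt9bKO 1, the lowest of its genotype in the factors, had the highest mesenchyme sum of all libraries (1480 CPM). The median log2 change of the 11 mesenchyme genes was 0.07 in Wnt9bKO and -0.21 in DKO, where *Barx1* and *Prrx2* fell. Of 10 surface ectoderm genes 1 (*Grhl3*) was higher in each comparison. That is near the shares of all genes called higher, 12.1% in Wnt9bKO and 9.94% in DKO. The median log2 change of the 10 genes was 0.04 in Wnt9bKO and 0.01 in DKO. Of 5 endothelial genes 2 were higher and 1 lower in Wnt9bKO, and 1 was higher in DKO. Of 6 erythroid genes 2 fell in Wnt9bKO and 4 in DKO. Of all 17317 genes tested, 1586 were called lower in Wnt9bKO and 1173 in DKO. The part of tissue proportions in the changes of the factors was not tested.

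**Figure D4:**
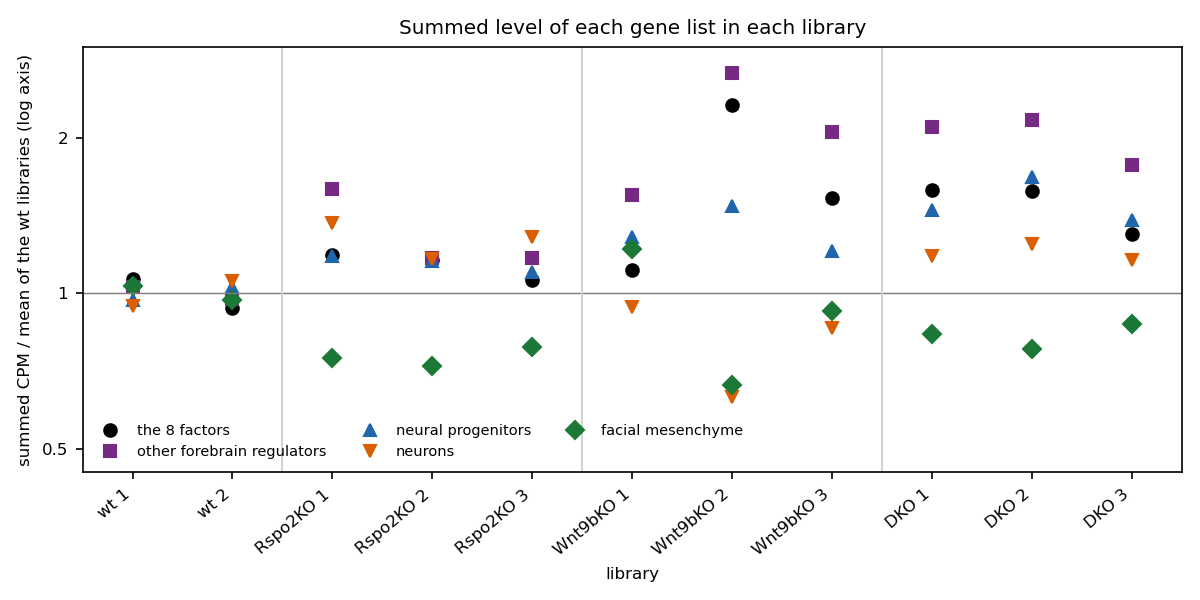
Summed CPM of each gene list in each library divided by its mean in the wt libraries, on a log axis, for the 8 factors, 16 other forebrain regulators, neural progenitor, neuronal and facial mesenchyme genes. The factors reach 2.32 times the wt mean in Wnt9bKO 2, where neuronal and mesenchyme genes are at 0.629 and 0.664 times theirs.

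The libraries with and without the *Wnt9b* mutation also differed in measures outside these tissues. Small nuclear RNA genes gave sums of 352 to 419 CPM for wt and Rspo2KO but 70.1 to 82.6 CPM for Wnt9bKO and DKO. Erythroid genes summed to 3926 to 5741 CPM and to 1734 to 2835 CPM in the same groups. Both gaps follow the *Wnt9b* label in all 11 libraries, so that any difference in library preparation or dissection between these groups and the mutation cannot be told apart. *Xist*, the RNA of the inactive X chromosome, was at 679 to 1468 CPM in wt and DKO. It was at 0.820 to 1.94 CPM in Rspo2KO and Wnt9bKO. The 4 factors called in DKO against wt were called between genotypes both high in *Xist*, which was itself called higher in DKO. The 6 called in Wnt9bKO against wt, and the 3 in DKO against Rspo2KO, were called between a high and a low genotype. In those comparisons, in Rspo2KO against wt and in DKO against Wnt9bKO, the *Xist* level followed the genotype label in every library. The *Xist* difference and the mutations cannot be told apart there, and its part in the calls was not tested.

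*Six3os1*, a long noncoding RNA transcribed next to *Six3* on the opposite strand, was far more abundant than *Six3* in counts, at 54.8 to 118 CPM. Its level was highest in the library labelled Wnt9bKO 2 and lowest in that labelled DKO 3, as for *Six6*, and it was not called in any comparison (log2 change 0.35 in Wnt9bKO, edgeR adjusted p = 0.237). Since 5.0% of the *Six3* exon bases lie in opposite-strand exons, the *Six3* count over those bases depends on the strand setting, which is not given. *Emx2os* rose less than *Emx2*, by 0.47 on the log2 scale in Wnt9bKO, which was not called (edgeR adjusted p = 0.0984).

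The genes whose log2 CPM over the 11 libraries was most like the mean standardized level of the 8 factors were *Sox1* (Pearson's r = 0.964), *Fezf1* (0.963), *Shroom2* (0.948), *Mylk* (0.944) and *Gm43517* (0.942). *Sox1* encodes a neural progenitor factor and *Fezf1* a factor of forebrain and olfactory epithelium. *Sox1* was 25.7 and 20.2 CPM in wt and 35.8, 69.7 and 47.7 CPM in Wnt9bKO, the order of the Wnt9bKO libraries being that of *Lhx2*. For deviations from genotype means the 5 most like were *Nol9*, *Fam53b*, *Pqlc3*, *Phtf2* and *3632454L22Rik*, at r from 0.960 to 0.968. These values describe 11 libraries searched over all genes tested.

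Upstream sequence was read for 7 of the 8 factors in 12 windows, each the 250 bases before a RefSeq start on GRCm38.p6. The 4 printed here are those free of annotated exons, and they let *Lhx2*, *Otx2* and *Vax1*, which rose in Wnt9bKO, be set beside *Pax6*, which was not called. Capitals mark CTTTGAT, the core bound by TCF/LEF factors at the end of the WNT pathway, and TAATTA, a core bound by many homeodomain factors, searched on both strands. TAATCC, the core preferred by OTX factors, was searched as well and is in none of the 4. The windows are Lhx2 chr2:38339031-38339280 (plus strand), Otx2 chr14:48667645-48667894 (minus strand), Vax1 chr19:59170398-59170647 (minus strand) and Pax6 chr2:105668646-105668895 (plus strand).
Lhx2: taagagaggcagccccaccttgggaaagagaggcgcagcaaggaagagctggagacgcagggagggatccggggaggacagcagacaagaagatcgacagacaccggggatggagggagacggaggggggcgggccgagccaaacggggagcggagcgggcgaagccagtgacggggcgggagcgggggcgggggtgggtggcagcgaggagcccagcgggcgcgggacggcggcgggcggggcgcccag
Otx2: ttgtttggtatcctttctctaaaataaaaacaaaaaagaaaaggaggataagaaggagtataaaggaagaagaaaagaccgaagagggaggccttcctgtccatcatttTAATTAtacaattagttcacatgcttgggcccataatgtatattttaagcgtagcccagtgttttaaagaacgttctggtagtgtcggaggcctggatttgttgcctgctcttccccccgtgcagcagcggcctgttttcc
Vax1: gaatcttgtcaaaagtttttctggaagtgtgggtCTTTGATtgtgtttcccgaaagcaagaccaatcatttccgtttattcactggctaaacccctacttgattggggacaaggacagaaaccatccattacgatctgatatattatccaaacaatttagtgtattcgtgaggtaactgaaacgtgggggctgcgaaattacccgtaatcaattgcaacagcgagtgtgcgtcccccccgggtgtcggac
Pax6: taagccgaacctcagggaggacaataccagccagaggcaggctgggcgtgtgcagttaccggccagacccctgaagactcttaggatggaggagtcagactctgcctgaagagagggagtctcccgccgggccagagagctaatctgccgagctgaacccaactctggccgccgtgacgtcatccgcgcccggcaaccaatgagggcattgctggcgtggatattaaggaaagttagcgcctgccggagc

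CTTTGAT was found in 1 of the 12 windows, the *Vax1* window shown, and in 3.21% of the 32851 windows of all genes. TAATTA was found in 2 of the 12, both of *Otx2*, and in 4.84% of all windows, and TAATCC in 1 of the 12, also of *Otx2*, and in 6.25% of all windows. The GC content was 72.8% in the *Lhx2* window, 60.8% in that of *Pax6*, 44.8% in that of *Vax1* and 42.0% in that of *Otx2*, against a median of 52.4% over all windows. The factors that rose did not share these letters.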

How the data were processed

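Raw counts per Ensembl gene, as deposited, had been made by the authors from single-end reads, trimmed in Cutadapt and aligned by STAR (GRCm38), with HTSeq-Count. Tool versions and the strand setting are not given in the sources used here. Of 38561 genes, 36723 matched GENCODE vM21 by identifier. Groups came from the sample titles, and the study's methods state more wt samples than the 2 analysed here. TMM factors were 0.915 to 1.10.

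All 11 libraries were fitted in 1 model with a mean per genotype, using edgeR 4.0.16 in R 4.3.3 after filterByExpr, with two-sided quasi-likelihood tests and Benjamini-Hochberg adjustment over 17317 genes. No fold limit was set for the interaction. The script was tested on simulated data. Alternatives were DESeq2 1.42.0 (the study's tool), other scaling, other filters, the replicate block, GC content and length offsets (loess, span 0.3), fewer genotypes in the model, and leaving out libraries. Deviations and likeness used log2 CPM with a prior count of 2. The factors and the 13 marker lists were chosen with earlier results of these data known. All 8 factors were named, and up to 4 genes per list and comparison with the smallest p. A level named for another reason was chosen after its values were seen. Some genes of these lists are not reported here.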

Additional observations from a re-analysis of the deposited data

How the results depend on the processing

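The numbers of factors called stayed within 1.5 times of the main fit under RLE and upper-quartile factors and both other count filters. They did so too under the fit of only the genotypes compared and under DESeq2. Within that limit, DKO against wt had 4 in the main fit, but 6 under DESeq2 and without the low-count filter. It had 5 under upper-quartile factors, the stricter count filter and the fit of only the genotypes compared. DKO against Rspo2KO had 3 in the main fit and 2 under DESeq2. With 1 library left out at a time, the number ranged from 1 to 6 in Wnt9bKO against wt, from 0 to 6 in DKO against wt and from 1 to 3 in DKO against Rspo2KO. In DKO against Rspo2KO it was 1 with the GC content and length offset, 1 with that offset and the replicate block, and 5 without the libraries labelled Wnt9bKO 2 and DKO 3. At an unadjusted p it was 1 in Rspo2KO against wt, beside 4.68% of all genes tested, and 1 for the interaction, beside 9.44%. Pairing libraries by replicate number, as a block, gave 6 called in Wnt9bKO, 6 in DKO against wt and 2 in DKO against Rspo2KO. Deviations of same-numbered libraries correlated at -0.11 to 0.24, so the numbers were not taken to pair the libraries.

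Changes of sign concerned only values that were not called. With the GC content and length offset, the log2 change became -0.084 for *Pax6* in Wnt9bKO against wt, -0.11 for *Pax6* in Rspo2KO against wt, -0.025 for *Pax6* in DKO against wt and 0.17 for *Pax6* for the interaction. With that offset and the replicate block, the log2 change became -0.17 for *Pax6* in Wnt9bKO against wt, -0.14 for *Pax6* in Rspo2KO against wt, -0.047 for *Pax6* in DKO against wt and 0.26 for *Pax6* for the interaction. With the replicate block alone, the log2 change became 0.030 for *Pax6* for the interaction. Without the libraries labelled Wnt9bKO 2 and DKO 3, the log2 change became -0.22 for *Pax6* and -0.13 for *Six6* in Wnt9bKO against wt, 0.18 for *Six6* in DKO against wt, 0.080 for *Six3*, 0.31 for *Six6*, 0.17 for *Rax*, 0.28 for *Vax1*, 0.050 for *Lhx2*, 0.40 for *Otx2* and 0.021 for *Emx2* in DKO against Wnt9bKO and 0.44 for *Pax6*, 0.12 for *Six6* and 0.11 for *Otx2* for the interaction. With 1 library left out at a time, the changes that crossed 0 ran from -0.19 to 0.50 for *Pax6* and -0.10 to 0.48 for *Six6* in Wnt9bKO against wt, from -0.78 to 0.17 for *Emx2*, -0.012 to 0.15 for *Pax6* and -0.0049 to 0.43 for *Six6* in Rspo2KO against wt, from -0.30 to 0.18 for *Six6* in DKO against wt, from -0.23 to 0.48 for *Pax6*, -0.56 to 0.055 for *Six6*, -0.36 to 0.076 for *Rax*, -0.55 to 0.037 for *Lhx2*, -0.35 to 0.26 for *Otx2* and -0.49 to 0.11 for *Vax1* in DKO against Wnt9bKO, from -0.27 to 0.68 for *Emx2* and -0.30 to 0.41 for *Pax6* for the interaction. The cause was not tested for any of these. With 25 counts as the lowest for *Rax*, counting error limits that gene most.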

Other observations

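*Hoxb2* and *Hoxb1*, which pattern the hindbrain, fell in Wnt9bKO. *Hoxb2* was 0.982 and 1.57 CPM in wt and 0.213, 0.179 and 0.060 CPM in Wnt9bKO. *Hoxb1* was 1.07 and 2.17 CPM in wt, 0.053 and 0.060 CPM in Wnt9bKO 1 and 3, and had no count in Wnt9bKO 2, levels under that of 3 counts. In DKO *Hoxb2* was 0.176, 0.871 and 0.667 CPM (edgeR adjusted p = 0.082 against wt) and *Hoxb1* had no count in DKO 1 and 1.56 and 0.667 CPM in DKO 2 and 3 (edgeR adjusted p = 0.201), so neither was called there. *En1* and *Pax5*, midbrain and hindbrain factors chosen after their values were seen, were not called in Wnt9bKO, with log2 changes of 0.73 and 0.25 against wt. The list as a whole went the other way, with a median log2 change of -1.07 in Wnt9bKO over its 7 tested genes. Its sum was 16.6 to 24.1 CPM in wt, 3.87 to 6.38 CPM in Wnt9bKO and 5.87 to 20.4 CPM in DKO.

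*Wnt8b*, a ligand of the dorsal telencephalon and hypothalamus, was 0.691 CPM in Wnt9bKO 1, as low as in Rspo2KO 3, but 8.04 and 4.31 CPM in Wnt9bKO 2 and 3 and 2.93 to 7.22 CPM in DKO. *Emx2* was 11.2 CPM in that same Wnt9bKO 1 library.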
